A study of Mus musculus with 12 samples.

Results

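The genes described here are 10 transcription factors that drive or hold back the switch between epithelial and mesenchymal cell states: Zeb1, Zeb2, Snai1, Snai2, Twist1, Twist2 and Prrx1 on the mesenchymal side, and Grhl2, Ovol1 and Ovol2 on the epithelial side. They were chosen by name, for their known roles, out of the 25514 mouse genes that the files covered. Each was represented by the transcript with the highest count over all libraries. Of the 10 factors, 9 had a count in some library and 8 passed the filter on low counts and were tested, among 12971 genes tested in all. Prrx1 had 0 counts in all 12 libraries, and Ovol2 had too few counts to be tested. Positions are those of GRCm38.p6.

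RNA was sequenced from conditionally immortalized proximal tubule (PT) cells, the epithelium that reclaims most of the filtrate in the kidney, to ask how loss of the TGF-β type II receptor (TβRII, gene Tgfbr2) alters their transcripts at rest and under oxidative stress. The cells came from male mice with floxed Tgfbr2 alleles and the Immorto-mouse transgene (H2ts6 in the labels), a temperature-sensitive T antigen that all 4 groups carry. They were grown at 33 °C with interferon gamma and moved to 37 °C for 5 days before the experiment. TβRII flox/flox PT cells (floxed PT cells below) kept the receptor, and TβRII-/- PT cells were made from them by adding Cre recombinase to cultured cells. Both genotypes were sequenced in complete medium (untreated) and after 24 h of H2O2 in serum-free medium, giving 4 groups of 3 libraries. The labels give the H2O2 dose as 200 mM and the study's methods give the same figure in µM. Medium and H2O2 changed together, so their effects cannot be told apart. The genotypes were a pair of cell lines: p-values between them measure the spread between libraries, and the deletion cannot be told apart from other differences between the lines.

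An epithelial cell becomes mesenchymal when zinc finger repressors of the Zeb and Snail families and the bHLH factors Twist1 and Twist2 shut down junction genes such as Cdh1 (E-cadherin) and matrix and motility genes are switched on. Grhl2 activates junction genes and opposes Zeb1, while Ovol1 and Ovol2 repress Zeb and Twist genes, so the opposing factors form mutual inhibition loops. TGF-β is a classical inducer of Snail, Zeb and Twist genes, and the tubular epithelium of injured kidneys is known to switch on Snai1 and Twist1.

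Tgfbr2 RNA was still counted in every library. The counts were 8791, 7521 and 7032 in untreated floxed PT cells and 6485, 6895 and 6642 in untreated TβRII-/- PT cells. The difference of -0.35 on the log2 scale (SE 0.07, adjusted p = 2.81e-05 by edgeR's quasi-likelihood method, Benjamini-Hochberg adjusted) was under the 1.5-fold limit used here for a call. With H2O2 the means were 13633 and 7216 normalized counts, and the difference of -0.92 (SE 0.07, adjusted p = 6.62e-14) was past it. Whole-transcript counts do not resolve which exons were deleted. Gene counts summed to between 15870155 and 20857618 per library, and all values below are counts or counts normalized to a library of 17351835. The first principal component, with 81.5% of the variance, split the libraries by genotype. Kidney epithelial genes Pax2, Pax8 and Cdh16 and the proximal tubule genes Lrp2 and Aqp1 were abundant in every group, whereas the mature tubule genes Slc34a1, Slc22a6, Slc22a8 and Hnf4a had at most 3 counts in every library. Of the 6 proximal tubule markers tested, 5 were called lower and 0 higher in TβRII-/- PT cells, in untreated and in H2O2-treated cells alike. Of all genes tested, 11.8% were lower untreated and 13.4% with H2O2.

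Between untreated genotypes, 7 of the 8 factors tested passed the limits (1.5-fold or more in either direction with an adjusted p under 0.05 from edgeR), against 28.0% of all genes tested. In TβRII-/- PT cells 3 of them were lower, the repressors Zeb1, Zeb2 and Snai2, where 11.8% of all genes were lower. The other 4, Twist1, Twist2, Grhl2 and Ovol1, were higher, where 16.3% of all genes were higher. Snai1 was not called. The mesenchymal factors therefore moved in both directions. Grhl2 and Ovol1 had at most 3 counts in every floxed library and passed the filter on low counts through the TβRII-/- libraries, which fixed their direction. With at least 10 counts required in every library they were not tested, and 5 of 5 factors were called, 3 lower and 2 higher.

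**Figure D1:**
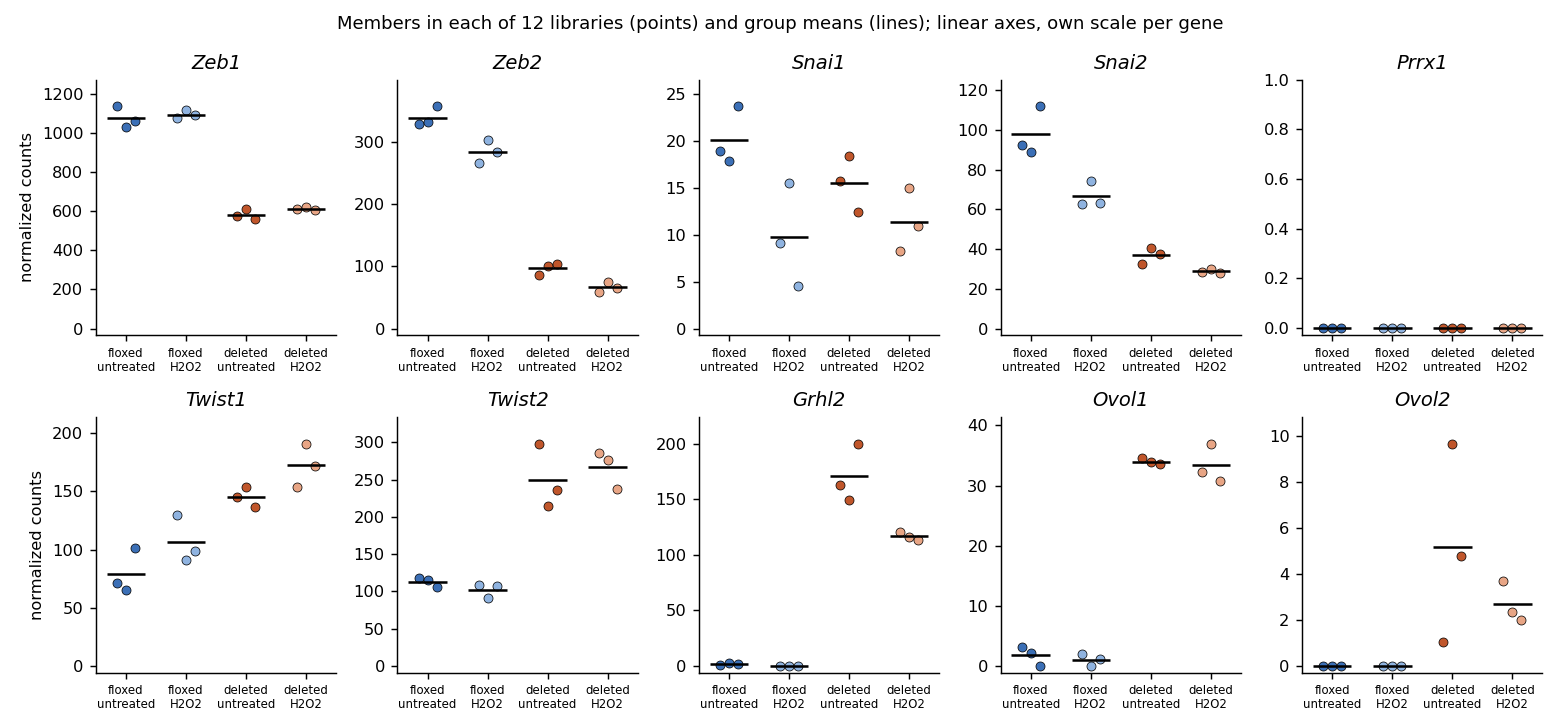
Normalized counts (linear vertical axes, a scale of its own for each gene) of the 10 factors in the 3 libraries of each group, with points for libraries and lines for group means; floxed and deleted name the genotypes. Zeb1, Zeb2 and Snai2 are lower and Twist1, Twist2, Grhl2 and Ovol1 higher in every TβRII-/- library than in any floxed library, and Prrx1 is at 0 throughout.

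Zeb1, a zinc finger repressor of Cdh1 and of other epithelial genes, was the most abundant mesenchymal factor of floxed PT cells. It had 1135, 1028 and 1061 normalized counts in their untreated libraries and 576, 611 and 559 in those of TβRII-/- PT cells. The groups were well apart and each was tight. The fit gave a fall by 0.89 on the log2 scale (SE 0.07, adjusted p = 1.56e-13). With H2O2 the values were 1074, 1117 and 1090 against 613, 620 and 607, and the difference was -0.83 (SE 0.06, adjusted p = 4.25e-13). Zeb1 lies on chromosome 18, whose 364 other genes tested had a median log2 difference of -0.32 between the untreated genotypes and -0.26 with H2O2, against 0.01 and 0.02 over all genes. Relative to the median of its chromosome Zeb1 was 1.48-fold and 1.49-fold lower, just under the 1.5-fold limit. The 19 tested genes nearest to Zeb1 on either side had a median of -0.37 in untreated cells. Whether the chromosome's copy number differed between the lines was not tested. An antisense gene, Zeb1os1, overlaps Zeb1 and held between 0 and 12 counts per library.

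Zeb2 (chr2:44983512-45117442), the second member of the Zeb family, had a larger difference than Zeb1. Its counts in untreated cells were 312, 298 and 332 in floxed and 82, 104 and 109 in TβRII-/- PT cells. No library of either group came near the other group. The difference was -1.80 on the log2 scale (SE 0.11, adjusted p = 3.63e-15) in untreated cells and -2.09 (SE 0.12, adjusted p = 3.76e-16) with H2O2. Its chromosome, 2, had a median of 0.31 in the same comparison, so Zeb2 moved against its surroundings. Per kilobase of transcript, the level of Zeb1 was 5.00 ± 0.40 times that of Zeb2 (SD, n = 3) in untreated floxed PT cells and 9.51 ± 1.07 times in TβRII-/- PT cells.

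Snai2 (Slug, chr16:14705852-14709395), a Snail family repressor that marks dedifferentiated epithelium, followed Zeb2. Its counts were 88, 80 and 104 in untreated floxed and 31, 42 and 39 in untreated TβRII-/- PT cells. Every TβRII-/- library was below all floxed libraries. The log2 difference was -1.40 (SE 0.18, adjusted p = 6.12e-08), and with H2O2 it was -1.21 (SE 0.20, adjusted p = 3.29e-06).

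Snai1 (Snail, chr2:167538195-167542814), the founding repressor of E-cadherin and a direct target of TGF-β signalling in many cells, was scarce. It had 18, 16 and 22 counts in untreated floxed and 15, 19 and 13 in untreated TβRII-/- PT cells. These ranges overlapped. The log2 difference was -0.38 with a SE of 0.35 (adjusted p = 0.352), which is a wide error at about 20 counts per library. With H2O2 the difference was 0.22 (SE 0.42, adjusted p = 0.654), and it changed sign when library 3 of H2O2-treated floxed PT cells (-0.12) or library 2 of H2O2-treated TβRII-/- PT cells (-0.04) was left out.

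Twist2 (chr1:91801461-91848034), a bHLH factor that binds E-boxes and takes part in the mesenchymal programme, rose where the Zeb genes fell. Its counts in untreated cells were 112, 104 and 98 in floxed and 285, 221 and 246 in TβRII-/- PT cells. Every TβRII-/- library lay well above all floxed libraries. The log2 difference was 1.14 (SE 0.13, adjusted p = 3.81e-09), or 2.20-fold, and with H2O2 it was 1.38 (SE 0.13, adjusted p = 4.26e-11), or 2.61-fold. A longer transcript of the same gene, Twist2-202, some of whose reads are counted on both, had 69, 64 and 53 against 166, 118 and 110 counts in untreated cells, so the groups were apart on it too.

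Twist1 (chr12:33957671-33959831), the close paralog of Twist2, had 68, 59 and 94 counts in untreated floxed and 139, 159 and 143 in untreated TβRII-/- PT cells. The groups did not overlap, although library 3 of floxed PT cells stood above its group. The log2 difference was 0.87 (SE 0.16, adjusted p = 1.68e-05), or 1.83-fold. With H2O2 it was 0.70 (SE 0.15, adjusted p = 0.000101), or 1.62-fold, and it dropped to 0.56, under the fold limit, without library 2 of H2O2-treated floxed PT cells. The 20 tested genes nearest to Twist1 had a median log2 difference of 0.22 untreated and 0.32 with H2O2, where its chromosome had 0.06 in both. Relative to the median of its chromosome Twist1 was 1.76-fold higher untreated and 1.55-fold higher with H2O2.

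Prrx1 (chr1:163245119-163315145), a homeobox factor of mesenchymal tissue, was not detected on any of its 5 transcripts. A count of 0 allows up to 3 counts per library, a limit that covers counting error only, as do the counting intervals below. Its paralog Prrx2 had a mean of 3.58 normalized counts in untreated TβRII-/- PT cells and 0 in untreated floxed PT cells.

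**Figure D2:**
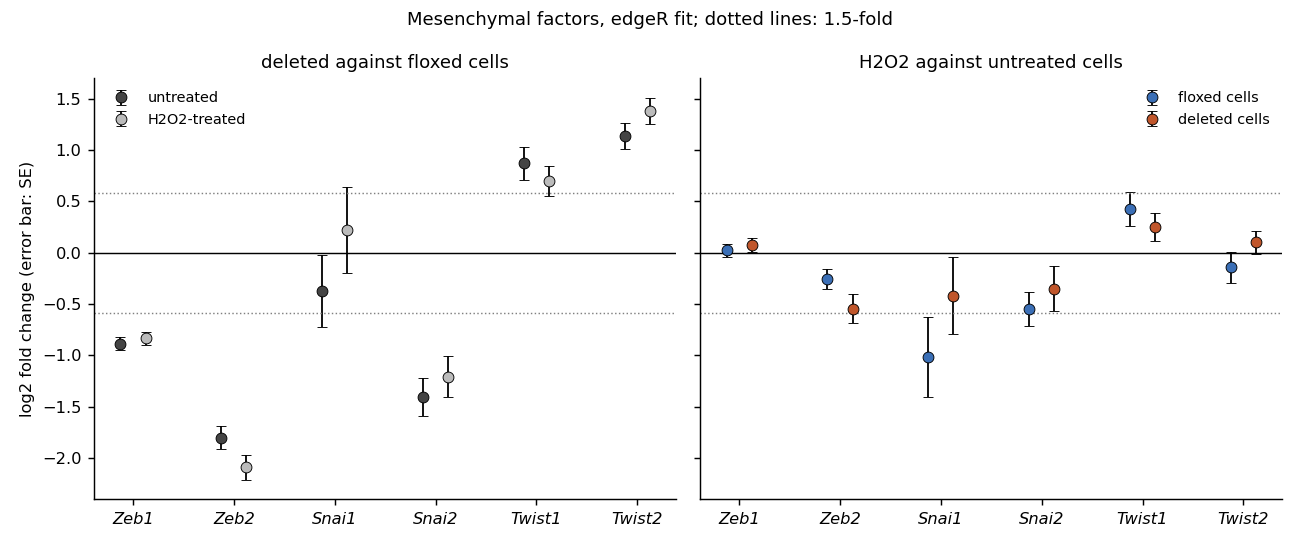
Log2 fold change (vertical axis, error bars SE, from the edgeR fit of all 12 libraries) of the 6 mesenchymal factors with counts, for TβRII-/- against floxed PT cells on the left and H2O2 against untreated cells on the right. Zeb1, Zeb2 and Snai2 lie below the dotted 1.5-fold line and Twist1 and Twist2 above it in both genotype comparisons, while on the right only Snai1 in floxed PT cells lies beyond a line.

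Grhl2 (chr15:37232821-37363569), a Grainyhead factor that activates Cdh1 and other junction genes, was close to absent from floxed PT cells. It had 1, 2 and 2 counts in their untreated libraries and 156, 154 and 209 in those of TβRII-/- PT cells. With H2O2 it had 0 counts in all 3 floxed libraries and 131, 148 and 114 in TβRII-/- PT cells. The ratio of the untreated groups was 95.1 (95% counting interval 40.5 to 294), and with H2O2 the gene was at least 36.6-fold higher in TβRII-/- PT cells, computed against 3 counts per library. Both differences passed edgeR's test (adjusted p = 1.14e-17 and 9.18e-17). The TβRII-/- libraries, through which the gene passed the filter, had fixed the direction. The gene Ncald lies on the opposite strand over Grhl2. It had between 129 and 159 counts in the floxed libraries, where Grhl2 had at most 2, and between 263 and 414 in the TβRII-/- libraries. The part of antisense reads in the Grhl2 counts was not tested.

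Ovol1 (chr19:5549137-5560575), a zinc finger repressor that holds epithelial identity, showed the same pattern at a lower level. It had 3, 2 and 0 counts in untreated floxed and 33, 35 and 35 in untreated TβRII-/- PT cells, and 2, 0 and 1 against 35, 47 and 31 counts with H2O2. The ratio was 18.9 (95% counting interval 7.83 to 59.3) in untreated cells and 31.7 (10.6 to 156) with H2O2. Both passed edgeR's test (adjusted p = 6.81e-09 and 1.59e-09), with the direction fixed by the filter as for Grhl2.

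Ovol2 (chr2:144305175-144332080), the second Ovol factor, had 0 counts in all 6 floxed libraries. In TβRII-/- PT cells it had 1, 10 and 5 counts untreated and 4, 3 and 2 with H2O2. Untreated, it was at least 1.60-fold higher, computed against 3 counts per library. That bound rests on library 2, without which the mean of 2.92 normalized counts lay under the floor of 3.24. With H2O2 both groups lay at or near that floor, so no fold was computed.

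The order of the factors differed between the genotypes when levels were set per kilobase of transcript. Twist2 was scaled to the 1336 bases of Twist2-201. The order was not computed with Twist2-202, of 2525 bases, which would lower the level of Twist2. The places of Twist2 given here, and its distance from Zeb1, therefore hold for the shorter length only. In untreated floxed PT cells Zeb1 stood first with 185 ± 9.43 normalized counts per kilobase (SD, n = 3), followed by Twist2 with 84.6 ± 4.98. Twist1 (48.1 ± 11.5), Snai2 (42.3 ± 5.31) and Zeb2 (37.2 ± 1.73) came next, and neighbours among these 3 overlapped. Snai1 stood at 12.4 ± 1.91, and Ovol1 and Grhl2, both under 1, overlapped at the bottom. In untreated TβRII-/- PT cells Twist2 stood first with 187 ± 32.7, above Zeb1 with 100.3 ± 4.55 and Twist1 with 88.0 ± 5.16, and the libraries of these neighbours did not overlap. Grhl2, with 34.5 ± 5.32, came next, above Snai2 with 15.9 ± 1.79. Ovol1 (11.4 ± 0.17), Zeb2 (10.6 ± 1.08) and Snai1 (9.56 ± 1.84) overlapped with their neighbours. After H2O2 Zeb1, Twist2 and Twist1 still led in floxed PT cells, where Twist2 and Twist1 now overlapped, and Twist2, Zeb1, Twist1 and Grhl2 still led in TβRII-/- PT cells, where Zeb1 and Twist1 now overlapped.

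Per kilobase, with Twist2 scaled to Twist2-201, the sum of the mesenchymal factors overlapped between the untreated genotypes while its make-up did not. Untreated, it was 410 ± 18.4 normalized counts per kilobase in floxed and 411 ± 28.5 in TβRII-/- PT cells, with ranges of 389 to 425 and 391 to 443. With H2O2 it was 396 ± 9.92 and 436 ± 23.8, and the ranges of 389 to 407 and 412 to 459 did not overlap. Without scaling to length the untreated sums were 1724 ± 66.0 and 1126 ± 35.7 normalized counts. Twist1 and Twist2 held 32.4% ± 0.63 of the untreated sum per kilobase in floxed PT cells and 66.7% ± 3.31 in TβRII-/- PT cells. With H2O2 they held 35.6% ± 3.90 and 69.6% ± 1.13. The highest share in any floxed library was 39.3% and the lowest in any TβRII-/- library was 63.6%. These sums over chosen genes are a description and were not tested. The sums per kilobase and the Twist shares rest on the 1336 bases of Twist2-201. They were not computed with Twist2-202, of 2525 bases, which would lower the part of Twist2, most where Twist2 was highest. Whether the sums overlap between genotypes therefore depends on the length chosen. In bulk RNA, a change in the number of cells that express a factor and a change in its RNA per cell cannot be told apart.

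**Figure D3:**
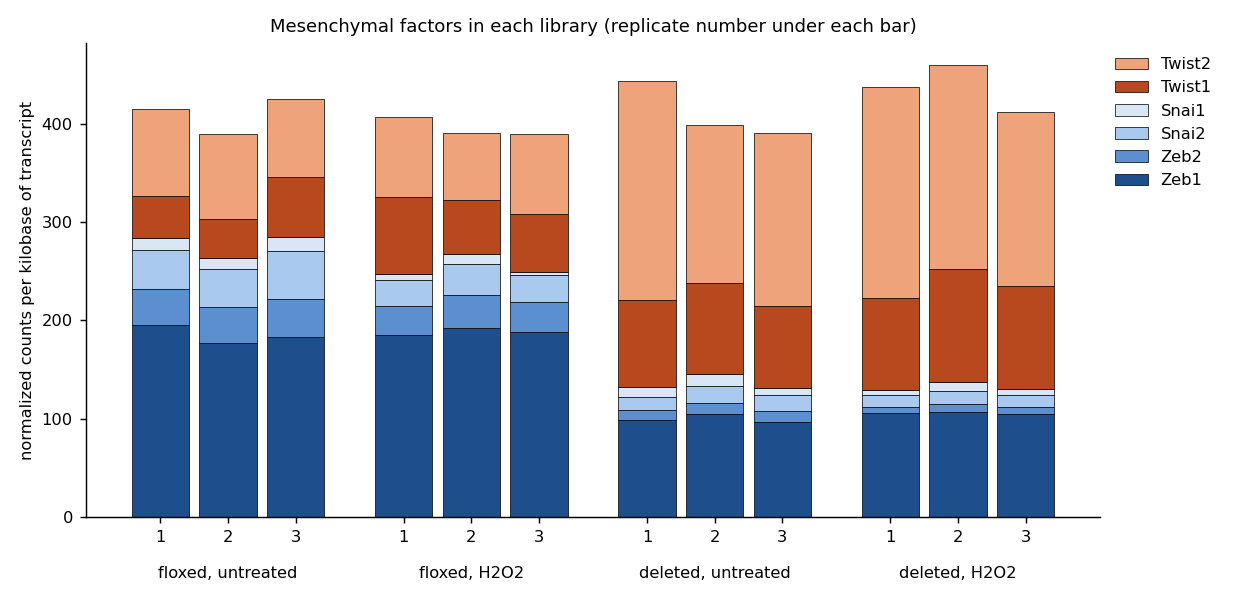
Stacked normalized counts per kilobase of transcript (vertical axis, from 0) of Zeb1, Zeb2, Snai2, Snai1, Twist1 and Twist2 in each of the 12 libraries. The bars reach between 389 and 459 in all groups, with Zeb1 the largest segment in floxed and Twist2 the largest in TβRII-/- PT cells. Twist2 is scaled to the 1336 bases of Twist2-201.

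With H2O2, the comparison of genotypes called the same 7 factors as in untreated cells, 4 higher and 3 lower in TβRII-/- PT cells. Of all genes tested, 30.7% were called here, 17.3% higher and 13.4% lower. These libraries are separate from the untreated ones, though both comparisons come from the same fit. Grhl2 and Ovol1 again passed the filter through the TβRII-/- libraries, which fixed their direction. With at least 10 counts required in every library, 5 of 5 factors were called, 3 lower and 2 higher.

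Few factors were called between H2O2-treated and untreated cells. In floxed PT cells 2 of 8 passed the limits, Snai1 and Grhl2, against 8.24% of all genes tested. Snai1 had 9, 15 and 4 counts with H2O2, each below the lowest untreated count of 16, and its normalized mean went from 20.1 ± 3.11 to 9.74 ± 5.48 (SD, n = 3). Its log2 change of -1.02 (SE 0.39, adjusted p = 0.0355) did not pass with DESeq2 or on counts summed over transcripts, nor without library 1 or 3 of either group, where the change was between -1.05 and -0.70 (adjusted p 0.0527 to 0.184). For Grhl2 the call rests on 5 counts in the untreated group and 0 with H2O2, both at or under the floor, and no change is read from it. Zeb2 (-0.26, SE 0.10, adjusted p = 0.0385), Snai2 (-0.55, SE 0.17, adjusted p = 0.00925) and Twist1 (0.42, SE 0.17, adjusted p = 0.0425) passed the adjusted p and not the 1.5-fold limit. Zeb1 differed by 0.02 (SE 0.06) and Twist2 by -0.14 (SE 0.15).

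In TβRII-/- PT cells none of the 8 factors passed the limits in edgeR's test, against 8.33% of all genes. DESeq2 called none either, and 2 had an unadjusted p under 0.05, Zeb2 and Grhl2. Zeb2 went from 96.9 ± 9.85 to 66.2 ± 8.28 normalized counts (log2 change -0.55, SE 0.14, adjusted p = 0.00264). Grhl2 went from 171 ± 26.3 to 117 ± 3.81 (log2 change -0.55, SE 0.14, adjusted p = 0.00256). For both the groups did not overlap, and the changes of -31.5% and -31.6% were under the fold limit. Twist1 differed by 0.25 (SE 0.14), Snai2 by -0.35 (SE 0.22) and Zeb1 by 0.08 (SE 0.07), and Ovol1 by -0.02 (SE 0.26).

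In edgeR's interaction test, which 10.2% of all genes passed, the effect of H2O2 did not differ between genotypes for any factor at an adjusted p under 0.05. DESeq2 called none. Grhl2 alone had an unadjusted p under 0.05 (adjusted p = 0.153), and that value rests on the 0 counts of H2O2-treated floxed PT cells. For Zeb2 the H2O2 effects differed by -0.29 (SE 0.17, adjusted p = 0.323) and for Twist1 by -0.17 (SE 0.22, adjusted p = 0.685). The genotype and H2O2 comparisons share groups of libraries.

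Epithelial genes that these factors are known to act on were mostly higher in TβRII-/- PT cells. Of 30 epithelial genes repressed by Zeb and Snail factors or activated by Grhl2, 27 were tested. In untreated TβRII-/- PT cells 21 were higher and 0 lower, where 16.3% of all genes tested were higher. Of these 21, 11 had under 10 counts in some library, Cdh1, Epcam and Cldn4 among them, and most of these passed the filter only through the libraries where they were high. With at least 10 counts required in every library, 10 of 16 tested were higher and 0 lower. Over the 27 the median log2 difference was 2.51, or 2.38 with 4 genes at their lower bound, against 0.01 over all genes tested. With H2O2 the counts were the same, 21 higher and 0 lower, where 17.3% of all genes were higher. The median was 2.47, or 2.07 with 3 genes at their bound.

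Cdh1, the adhesion protein of epithelial junctions, had 1, 1 and 3 counts in untreated floxed and 1069, 1080 and 1223 in untreated TβRII-/- PT cells. Epcam, an epithelial surface protein, had 0, 1 and 0 against 697, 662 and 649 counts. The floxed libraries held next to none of either. The ratio was 618 (95% counting interval 264 to 1904) for Cdh1, and for Epcam the interval of the ratio, with a single count in the lower group, began at 330. The tight junction protein Cldn4, the vesicle protein Mal2 and the epithelial splicing factor Esrp1 had 0 counts in all untreated floxed libraries and were at least 258-fold, 175-fold and 72.0-fold higher in TβRII-/- PT cells, computed against 3 counts per library. With H2O2 the floxed libraries held 10, 12 and 4 counts of Cdh1 and 0 of Esrp1 and Mal2.

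Mesenchymal genes were mostly lower. Of 23 listed, 20 were tested. In untreated TβRII-/- PT cells 14 were lower and 2 higher, with a median log2 difference of -1.97. Over all genes tested 11.8% were lower and 16.3% higher, and the median was 0.01. With at least 10 counts required in every library, 13 of 18 tested were lower and 1 higher. With H2O2, 16 were lower and 2 higher, and the median was -2.13. Over all genes 13.4% were then lower and 17.3% higher, and the median was 0.02. The matrix enzyme Lox went from 12263 ± 1008 to 120 ± 20.04 normalized counts (log2 -6.68, SE 0.10, adjusted p = 3.28e-32). The matrix protein Postn went from 6101 ± 688 to 197 ± 28.6 (log2 -4.96, SE 0.09, adjusted p = 5.11e-29). Fibronectin (Fn1) and N-cadherin (Cdh2) differed by -3.49 (SE 0.10) and -1.98 (SE 0.07) on the log2 scale (adjusted p = 1.83e-24 and 9.19e-22). The 2 genes higher were Loxl2, a lysyl oxidase that is also known to act with Snail, with 4, 3 and 8 against 316, 356 and 298 counts, and smooth muscle actin Acta2, with 433, 411 and 460 against 2419, 2702 and 2445 counts. Vimentin (Vim), the filament protein of mesenchymal cells, differed by only -0.24 (SE 0.06, adjusted p = 0.00117) and was not called. N-cadherin is also a cadherin of the normal proximal tubule.

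**Figure D4:**
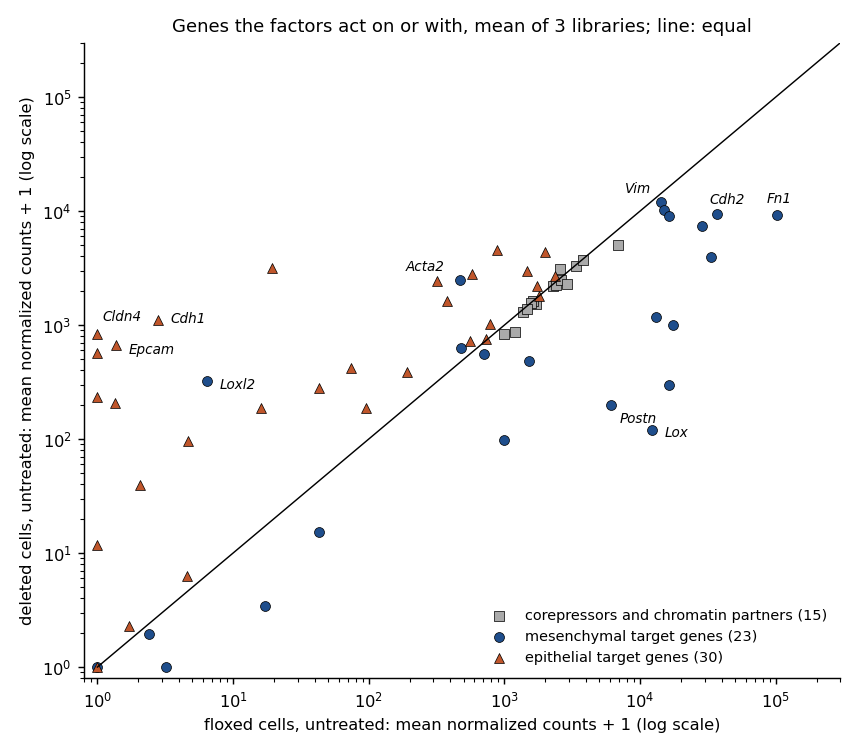
Mean normalized counts plus 1 (both axes logarithmic, 3 untreated libraries per genotype) of 30 epithelial target genes (triangles), 23 mesenchymal target genes (circles) and 15 corepressor genes (squares), with floxed PT cells across and TβRII-/- PT cells upward. Most triangles lie above the line of equal levels, with Cdh1, Epcam and Cldn4 at the far left, most circles lie below it with Loxl2 and Acta2 above, and the squares lie along it.

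Markers of the tubule and of other cells moved in both directions. Proximal tubule markers were lower where the epithelial genes were higher. In untreated cells the mean of the endocytic receptor Lrp2 was 17280 normalized counts in floxed and 11016 in TβRII-/- PT cells, and those of the water channel Aqp1 were 7103 and 4421. Cubn had means of 123 and 52.0, Ggt1 of 75.8 and 7.61, and Slc5a2 of 14.8 and 0. Of 6 loop and distal tubule markers, Calb1 and Aqp2 were at 0 in every library. The only one tested, Scnn1g, was higher in TβRII-/- PT cells, with means of 13.7 and 28.8 in untreated cells and 20.3 and 52.7 with H2O2. Of the 5 kidney epithelial markers 1 was higher (Cdh16, 10306 to 21439) and 1 lower (Lhx1, 33.6 to 0.957), near the shares over all genes tested. Those shares were 16.3% higher and 11.8% lower untreated, and 17.3% and 13.4% with H2O2. Of 8 fibroblast or pericyte markers, Lum was at 0 in every library, Pdgfra, Col1a2 and Col3a1 had means under 3 normalized counts in every group, and the summed level, 5586 to 6934 in untreated floxed and 190 to 241 in untreated TβRII-/- PT cells, was nearly all Postn. Of the 4 tested, Postn, Col1a1 and Pdgfrb were lower, and Dcn was higher with means of 1.46 and 5.51. Of 5 endothelial markers, Tie1 was at 0 and Pecam1, Cdh5 and Emcn had means under 3 in every group. The only one tested, the VEGF receptor Kdr, was higher in TβRII-/- PT cells, with means of 129 and 507 in untreated cells and 21.6 and 48.1 with H2O2. Of 5 leukocyte markers Adgre1 and Cd3e were at 0, and the only one tested, the lysosomal protein Cd68, was higher, with means of 136 and 234 in untreated cells and 140 and 248 with H2O2. The podocyte marker Nphs1 was at 0 in every library, while Synpo, an actin-binding gene in the same list of 4, had means of 2900 and 367 in the untreated genotypes. The part of other cells in the results was not tested.

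The repressor Zeb and Snail proteins bind the E-box CAGGTG. Promoter sequences from RefSeq (GRCm38.p6) were at hand for 6 of the 10 factors and 18 of the 30 epithelial genes, and the 250 bases before the start were searched on both strands. The motif stood in 13 of the 18 epithelial promoters (72.2%) and in 0 of 11 mesenchymal promoters, against 19.4% of all genes with a promoter. Among the 6 factors it stood in 1 promoter (16.7%), near that share of all genes. The other letters searched, CATCTG for Twist, CCGTTA for Ovol and AACCGGTT for Grhl, stood in 1, 1 and 0 of the 18 epithelial promoters, in 3, 1 and 0 of the 11 mesenchymal promoters, and in 16.3%, 2.52% and 0.137% of all genes. Among the epithelial genes tested, 9 of 10 with CAGGTG and 4 of 5 without it were higher in untreated TβRII-/- PT cells, with median log2 differences of 1.71 and 2.72. The list was drawn up from known repressed genes, and a motif is a description of the letters, not of binding. Below are a factor whose own promoter holds the E-box, both Twist promoters, which hold none of these motifs, and the pair of epithelial genes named above that have an entry, each 250 bases 5′ to 3′ on the gene's strand with CAGGTG or its complement CACCTG in capitals.
Snai1 (chr2:167537945-167538194, plus strand): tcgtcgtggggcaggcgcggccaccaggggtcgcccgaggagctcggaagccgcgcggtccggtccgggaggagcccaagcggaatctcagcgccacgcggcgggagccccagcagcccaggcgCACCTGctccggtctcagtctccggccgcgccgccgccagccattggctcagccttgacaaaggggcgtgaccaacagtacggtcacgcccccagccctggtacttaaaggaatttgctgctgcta
Twist1 (chr12:33957421-33957670, plus strand): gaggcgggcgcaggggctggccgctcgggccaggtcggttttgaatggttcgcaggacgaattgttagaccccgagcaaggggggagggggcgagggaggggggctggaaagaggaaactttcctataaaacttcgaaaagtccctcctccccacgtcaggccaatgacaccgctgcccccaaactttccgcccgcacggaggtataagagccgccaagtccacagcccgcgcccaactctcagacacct
Twist2 (chr1:91801211-91801460, plus strand): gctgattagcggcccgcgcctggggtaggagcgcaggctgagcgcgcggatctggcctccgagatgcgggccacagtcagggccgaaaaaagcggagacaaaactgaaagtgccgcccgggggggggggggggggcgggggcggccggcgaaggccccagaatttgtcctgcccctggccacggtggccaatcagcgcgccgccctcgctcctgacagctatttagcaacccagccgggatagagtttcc
Epcam (chr17:87635729-87635978, plus strand): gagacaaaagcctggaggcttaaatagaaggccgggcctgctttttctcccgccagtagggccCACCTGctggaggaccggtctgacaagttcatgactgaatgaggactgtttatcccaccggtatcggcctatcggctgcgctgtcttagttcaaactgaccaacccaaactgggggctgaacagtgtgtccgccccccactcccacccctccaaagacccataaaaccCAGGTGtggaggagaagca
Cldn4 (chr5:134946935-134947184, minus strand): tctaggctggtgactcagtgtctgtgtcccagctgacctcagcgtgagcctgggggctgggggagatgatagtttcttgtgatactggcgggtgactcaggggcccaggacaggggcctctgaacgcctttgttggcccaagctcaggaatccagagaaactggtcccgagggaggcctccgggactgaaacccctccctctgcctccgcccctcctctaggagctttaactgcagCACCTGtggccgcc
The Snai1 motif began 126 bases before the start. The Epcam motifs began 187 and 19 bases before it, and the Cldn4 motif began 14 bases before it. The Twist1 and Twist2 windows were 62.4% and 68.8% G and C, where the median of all windows was 52.4%.

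None of 15 corepressors and chromatin partners through which Zeb and Snail proteins act, such as Ctbp1, Kdm1a and Hdac1, was called between untreated genotypes by edgeR or DESeq2, with log2 differences between -0.47 and 0.29. Of all genes tested, 28.0% were called. Of the 15 partners, 6 had an adjusted p under 0.05 from edgeR and missed only the 1.5-fold limit. Of 12 genes that set the stability of Snail proteins, 1 was called, Lats2, a kinase that stabilizes Snail, which was lower in TβRII-/- PT cells (log2 difference -0.59, SE 0.06, adjusted p = 6.93e-10).

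Among 7 bHLH partners and Id inhibitors of Twist proteins, 3 were higher and 1 lower in untreated TβRII-/- PT cells. With H2O2, 2 were higher and 1 lower. Over all genes tested, 16.3% were higher and 11.8% lower untreated, and 17.3% and 13.4% with H2O2. Id proteins bind the E-protein partners of Twist and keep them from DNA. Id4 went from 12, 10 and 6 to 398, 384 and 408 counts (log2 difference 5.27, SE 0.17, adjusted p = 5.83e-23), and Id2 from 144, 151 and 171 to 1273, 1267 and 1343 (2.93, SE 0.09, adjusted p = 9.23e-24). Id1 differed by 0.66 (SE 0.09, adjusted p = 6.93e-08), and with H2O2 it was lower by the test and under the fold limit (-0.39, SE 0.10, adjusted p = 0.000918). The E-protein gene Tcf4 went from 1456 ± 88.7 to 692 ± 52.6 normalized counts (-1.07, SE 0.07, adjusted p = 3.98e-15).

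Paralogs of the factors were counted too. Grhl3, a paralog of Grhl2, had 7, 4 and 8 counts in untreated floxed and 28, 49 and 59 in untreated TβRII-/- PT cells (log2 difference 2.69, SE 0.37, adjusted p = 1.51e-07). Snai3 had 13, 10 and 2 against 17, 29 and 18 (1.22, SE 0.43, adjusted p = 0.0149), and with H2O2 it was not called. Grhl1 differed by 0.48 (SE 0.14, adjusted p = 0.0028), under the fold limit. Of 10 other tested transcription factors of the epithelial to mesenchymal switch, 6 were higher and 2 lower, including the epithelial factor Ehf (log2 difference 1.46, SE 0.08, adjusted p = 9.87e-17) and the forkhead factor Foxq1 (2.13, SE 0.34, adjusted p = 1.62e-06). The lower ones were Sox9 (-0.74, SE 0.15, adjusted p = 7.59e-05) and Sox4 (-0.71, SE 0.06, adjusted p = 1.23e-11). With H2O2, 5 of the 10 were higher and 0 lower, where Sox9 differed by 0.31 (SE 0.15, adjusted p = 0.0697) and Sox4 by -0.35 (SE 0.06, adjusted p = 8.78e-06). The shares over all genes tested were 16.3% higher and 11.8% lower untreated, and 17.3% and 13.4% with H2O2.

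For each called factor, the 3 genes whose pattern over the 12 libraries was most alike were found among 11042 protein-coding genes, by the root mean square difference of centred log2 counts. Zeb2 lay closest to Cdh2 (0.16), then to Tg (0.18) and to Fscn1 (0.18), an actin-bundling gene. Cdh2 had means of 36913 and 9339 normalized counts in the untreated genotypes and 30485 and 6783 with H2O2, where Zeb2 had 339 and 96.9, and 284 and 66.2. For Zeb1 the nearest were Asap3 (0.05), Eif2ak1 (0.07) and Cyth3 (0.07), and for Snai2 they were Mapk4 (0.14), Bok (0.15) and Nt5e (0.15). Twist1 lay nearest to Pank1 (0.16), D030056L22Rik (0.18) and Pcmtd2 (0.18), and Twist2 to Rxra (0.14), Triobp (0.14) and Stard10 (0.15). Grhl2 lay nearest to the surface protein Tspan8 (0.50), the glycosyltransferase Galnt3 (0.54) and Ppbp (0.55). Ovol1 lay nearest to Thsd4 (0.34), Galnt18 (0.37) and Gata4 (0.41). The 12 libraries form 4 groups, and any gene with a like step between genotypes scores well on this measure.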

How the data were processed

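RNA sequencing counts of 12 libraries were analysed, 3 in each of 4 groups taken from the sample labels. The authors aligned the reads with STAR and counted them with featureCounts on GRCm38.p6 (per the submitters' processing notes), and deposited whole-number counts per transcript without normalization. A read that overlaps several transcripts was counted on each. The deposited totals, 51387170 to 69231661, exceed the gene totals, which hold only 1 transcript per gene. By identifier, GENCODE M39 named the gene of 104820 of the 106332 transcripts, and the transcript with the highest total stood for each gene. The strand setting of the counting is not given in the sources used here, so antisense overlaps are uncertain. Libraries were normalized by TMM, filtered with filterByExpr, and tested with edgeR 4.0.16 (limma 3.58.1, R 4.3.3) in 1 quasi-likelihood model with a mean per group; p-values were adjusted by Benjamini-Hochberg over all 12971 genes tested. A call needed an adjusted p under 0.05 and a fold change of at least 1.5, and the interaction the adjusted p alone. The study's methods name DESeq2, which was run as an alternative (1.42.0).

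Named genes were the 10 factors, Tgfbr2, up to 3 genes called higher and 3 lower between untreated genotypes in each list (mean of at least 20 normalized counts), Cdh1, Epcam, Vim, Cdh2 and Fn1 in any case, and the 3 genes most like each called factor (mean of at least 50). Some genes of the lists are included in the counts and not reported here by name. Genes that show where a list stands (Grhl1, Prrx2, marker genes) and the other values beside counts were named after their values were seen. The members, lists and limits were chosen with earlier results of these data known. The script was tested on simulated counts with known fold changes. Replicates of a group differed by more than sampling noise (chi-square per gene 3.64 to 12.7). Whether replicates were separate cultures is not stated, so the spread may be technical. Promoters are RefSeq's.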

Additional observations from a re-analysis of the deposited data

Results flagged for a closer look

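The interaction test, of H2O2 effects that differ between the 2 genotypes, passed for none of the 8 factors tested. Several of the genes named beside them passed it (difference of the log2 effects, TβRII-/- minus floxed PT cells, in the quasi-likelihood fit of edgeR at an adjusted p under 0.05), and those with more than 3 counts in some library of every group follow. Among inhibitors of Twist proteins, Id1 differed by -1.04 (SE 0.13, adjusted p = 1.66e-06), with an H2O2 effect of -0.44 in floxed and -1.48 in TβRII-/- PT cells. Id2 differed by -0.67 (SE 0.13, adjusted p = 0.000902) and Id4 by -1.10 (SE 0.36, adjusted p = 0.0463). For both the effect was negative in TβRII-/- PT cells (-0.50 and -0.85), and that of Id2 was under the 1.5-fold limit. In floxed PT cells neither effect had an adjusted p under 0.05. Snai3 differed by -1.72 (SE 0.55, adjusted p = 0.0412), with an effect of 1.71 in floxed and -0.01 in TβRII-/- PT cells, at under 40 counts per library. Sox9 differed by 1.04 (SE 0.21, adjusted p = 0.00131), from -0.54 to 0.50, and Sox4 by 0.36 (SE 0.09, adjusted p = 0.00726), from 0.07 to 0.43. Acta2 differed by -0.58 (SE 0.12, adjusted p = 0.00119), from -1.39 to -1.97. Fn1 differed by -0.70 (SE 0.13, adjusted p = 0.000456), from 0.06 to -0.65. Tgfbr2 itself differed by -0.57 (SE 0.09, adjusted p = 7.85e-05), from 0.70 to 0.13. Among marker genes, Aqp1 differed by -0.82 (adjusted p = 4.45e-07), Kdr by -0.84 (adjusted p = 0.0446), Cdh16 by -0.39 (adjusted p = 0.0124), Pax2 by 0.64 (adjusted p = 1.94e-05) and Synpo by 0.68 (adjusted p = 4.54e-05). Among the genes most like Snai2, Mapk4 differed by 0.43 (adjusted p = 0.0107) and Bok by 0.34 (adjusted p = 0.0415).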

How the results depend on the processing

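Over 519 recomputed log2 differences of single factors, 495 kept their direction and their side of the limits, 7 lost a call, 7 gained one and 10 changed sign; all that changed sign were small and not called (-0.0004 for Zeb1 with H2O2 in floxed PT cells without library 2 of the untreated group; for Zeb1 with H2O2 in TβRII-/- PT cells -0.0023 on summed transcripts; for its interaction -0.0266 on summed transcripts, -0.0362 on the second transcript and -0.0190 without library 1; for Snai1 between H2O2-treated genotypes -0.1235 and -0.0435; for Twist2 with H2O2 in TβRII-/- PT cells -0.1391 on its second transcript; for Ovol1 there 0.0067 and 0.0331). Without 1 library these Zeb1 and Snai1 values reached 0.0762 (Zeb1 with H2O2 in floxed PT cells), 0.0882 (its interaction) and 0.6900 (Snai1) at most. The cause was not tested. Between genotypes the 7 called factors stayed 7 with DESeq2, its size factors in edgeR, summed transcripts and the groups compared alone. They were 8 without the filter, which adds Ovol2, 6 on second transcripts and 5 with at least 10 counts in every library, where Grhl2 and Ovol1 are not tested; leaving out 1 library gave 7 untreated and 6 to 7 with H2O2. With H2O2 in floxed PT cells the 2 calls became 1 with DESeq2, with only the groups compared, on summed transcripts and on second transcripts, 0 with at least 10 counts in every library or at an unadjusted p under 0.01, 5 without a fold limit, and 0 to 2 without 1 library. In TβRII-/- PT cells the 0 calls became 1 on second transcripts (Zeb2), 2 without a fold limit, and 0 to 1 without 1 library (Zeb2 or Grhl2). The interaction gave 1 on summed transcripts (Grhl2) and otherwise 0, including without any 1 library. Epithelial genes called were 10 in place of 21 with at least 10 counts in every library, since the others are not tested there, and 21 without any 1 library; mesenchymal ones were 16 to 17. With the replicate number as a block the counts were 7, 7, 2, 0 and 0 factors, 21 epithelial and 16 mesenchymal genes; same-numbered libraries deviated together with correlations of only -0.10 to 0.06, so the numbers were not taken as pairs. Depth limits Snai1, Ovol1 and Ovol2, which had at most 22, 47 and 10 counts per library. The absence of the epithelial factors from floxed PT cells was judged only against the chosen floor of 3 counts per library.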
